A study of Rattus norvegicus with 8 samples.

Results

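The gene Ptprc encodes CD45, the leukocyte common antigen, and was read by 27 of the 80939 probe sets of a rat exon array. A probe set reads an exon or part of an exon, and these 27 were all those whose only gene symbol in the platform annotation was Ptprc. No probe set named Ptprc together with another gene. Each of 8 arrays held RNA of the whole spinal cord of 1 rat, a virgin Lewis female of 16 weeks. In the EAE group (experimental autoimmune encephalomyelitis, rats 217, 218, 219 and 241) disease followed a subcutaneous injection at the tail base of 50 µg of MBP, a myelin protein, from guinea pig brain. The injection was given in Freund's incomplete adjuvant with 4.0 mg/ml of a mycobacterium (M.Butiricium in the labels), and cords were taken at peak disease, on day 13. The control group (rats 193, 194, 195 and 196) consisted of untreated littermates of the same age. They had no adjuvant alone, so what the adjuvant did and what MBP did cannot be told apart.

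CD45 is a receptor-type protein tyrosine phosphatase carried by nearly all blood cells other than mature erythrocytes and platelets, and by microglia, while neurons, oligodendrocytes and astrocytes do not normally make it. Inside the cell it removes an inhibitory phosphate from Src-family kinases such as Lck and Lyn, which sets the threshold of signalling from antigen receptors, and it can also act on Janus kinases. Its outer part varies: the exons known as A, B and C near the start of the protein are kept or skipped by splicing, B cells keep most of them, and activated and memory T cells skip them. Resting microglia are known for a lower CD45 surface level than macrophages that enter the cord from blood. The annotation used here gives no exon or genome position for a probe set, and in number order no 2 Ptprc probe sets were neighbours in the table, so number order was not read as exon order and the variable exons could not be told from the others.

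Ptprc was higher in the cords of rats with EAE in every one of its probe sets. The gene value, the mean of the 27 probe sets on a log2 intensity scale, was 9.39, 9.69, 9.54 and 9.41 in EAE rats 217, 218, 219 and 241, against 5.27, 5.48, 5.42 and 5.49 in control rats 193, 194, 195 and 196. The groups lay far apart, and within each the values spanned only 0.30 (EAE) and 0.22 (control). The mean was 9.51 ± 0.14 in EAE and 5.42 ± 0.10 in controls (SD, n = 4 each), a rise of 4.09 ± 0.11 (SE) on the log2 scale or 17.1-fold. In limma, fitted on all 6961 genes with Benjamini-Hochberg adjustment, the adjusted p was 4.63e-09, and the exact permutation test over arrays gave p = 0.0286 (2-sided), the smallest that 4 against 4 arrays allow. By size of rise Ptprc ranked 27th of the 6961 genes, of which 31.1% changed and 13.7% rose. In RNA of whole cords, more cells with the transcript and more transcript per cell cannot be told apart.

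**Figure D1:**
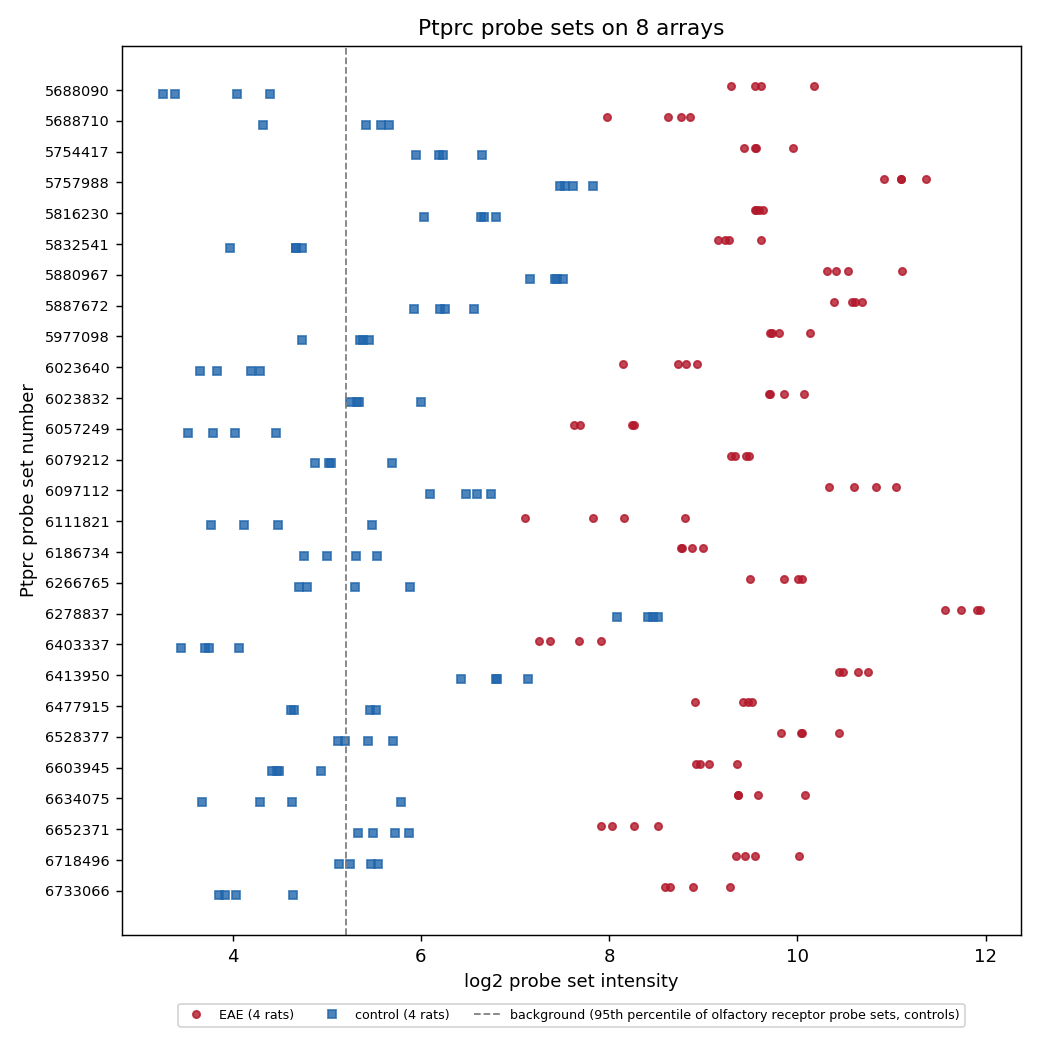
Log2 intensity (horizontal axis) of the 27 Ptprc probe sets, listed down the page by probe set number, with 1 point per array (red circles EAE, blue squares control, 4 rats each). The dashed line marks the level that 95% of olfactory receptor probe sets stayed under in controls (5.21), and in all 27 rows the EAE points lie to the right of the control points.

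All 27 probe sets rose in limma (adjusted p from 1.39e-07 to 0.000206, adjusted over 62176 measured probe sets), where 20.4% of measured probe sets changed and 10.2% rose. All 4 EAE arrays stood above all 4 control arrays in each of the 27, where 11.5% of measured probe sets did so. The gap between the lowest EAE and the highest control value ran from 1.63 to 4.90. Changes ran from 2.57 to 5.88 on the log2 scale, or from 5.94-fold to 58.9-fold, with a median of 4.23 and quartiles of 3.51 and 4.63. For scale, 2.08% of measured probe sets rose by 2.5 or more. That value lies just under the smallest Ptprc change, so it is no test of the 27. By comparison the median change over all measured probe sets was -0.10. To count as measured, a probe set had to reach 3.98, the 25th percentile of the table, on 4 or more arrays. Of the 27 Ptprc probe sets 19 met this on the control arrays alone, and the other 8 met it only with their EAE values.

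The largest rise was read by probe set 5688090. It had 9.29, 10.18, 9.55 and 9.61 in EAE rats 217, 218, 219 and 241, against 3.39, 4.05, 4.40 and 3.26 in control rats 193, 194, 195 and 196, a rise of 5.88 ± 0.29 (SE). EAE 218 was the highest of its group and control 195 the highest of the controls, still far below every EAE array. Probe set 6634075 followed with 9.36, 10.07, 9.58 and 9.37 in EAE, against 3.67, 4.63, 5.79 and 4.29 in controls, a rise of 5.0 ± 0.39. Here the controls spread widely, with control 195 highest and control 193 lowest. The next was probe set 5832541, with 9.28, 9.61, 9.16 and 9.23 in EAE, against 4.67, 4.67, 3.97 and 4.74 in controls, a rise of 4.80 ± 0.22. In this one control 195 was lowest and stood apart from the other 3 controls.

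The smallest rise came from probe set 6652371, which had 8.26, 7.91, 8.03 and 8.52 in EAE rats, against 5.34, 5.73, 5.50 and 5.87 in controls, a change of 2.57 ± 0.20. EAE 218 was the lowest of its group, and the groups did not overlap. Probe set 5816230 had 9.54, 9.56, 9.64 and 9.59 in EAE, against 6.67, 6.80, 6.03 and 6.64 in controls, a change of 3.05 ± 0.20. Probe set 5880967 had 10.53, 11.11, 10.31 and 10.41 in EAE, against 7.51, 7.15, 7.45 and 7.43 in controls, a change of 3.21 ± 0.21. In 5816230 the 4 EAE arrays were nearly equal, and in 5880967 EAE 218 was the highest.

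The brightest probe set, 6278837, had 11.74, 11.90, 11.94 and 11.57 in EAE, against 8.08, 8.46, 8.41 and 8.52 in controls, and rose by 3.42 ± 0.18. The dimmest in EAE, 6403337, had 7.37, 7.92, 7.67 and 7.25, against 4.07, 3.45, 3.75 and 3.71 in controls, and rose by 3.81 ± 0.21. Intensity depends on each probe set's own sequence, so levels were not compared between probe sets as levels of exons. The other 19 probe sets rose by 3.31 to 4.74.

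**Figure D2:**
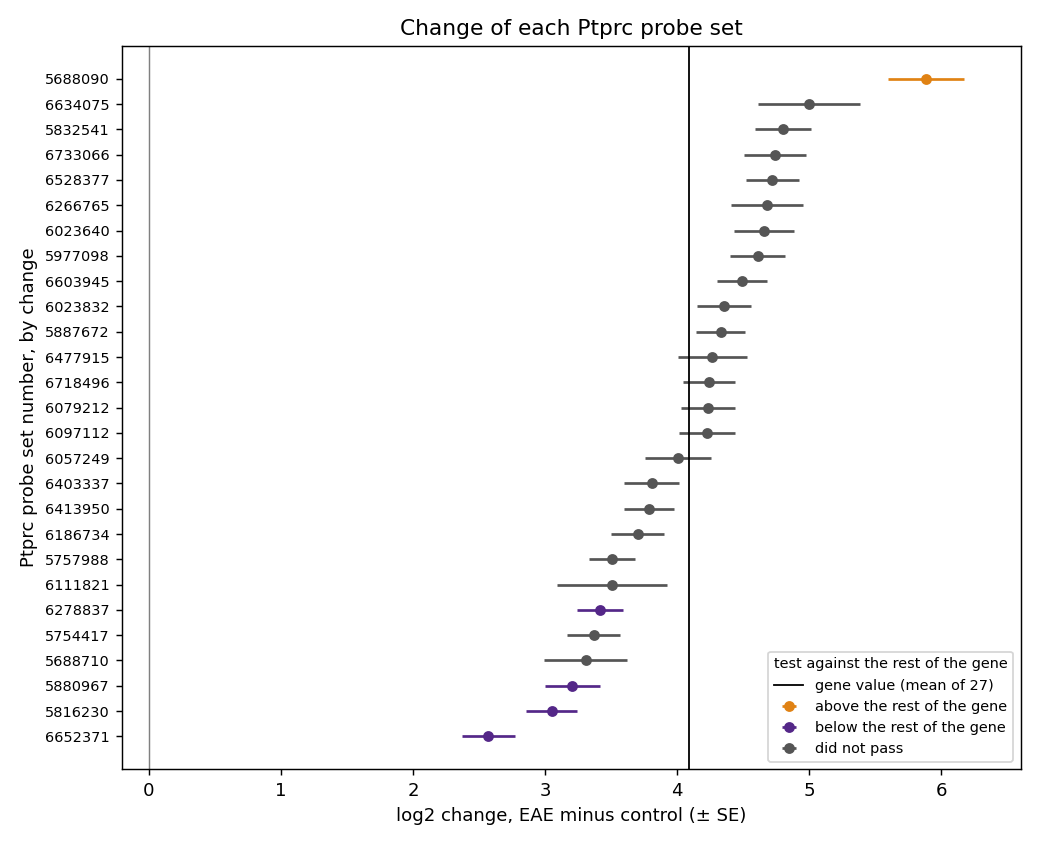
Log2 change, EAE minus control, with its SE (horizontal axis) for each of the 27 Ptprc probe sets, ordered by change. The black line is the change of the gene value (4.09), orange and purple mark the 5 probe sets that passed the test against the rest of the gene, and changes run from 2.57 (6652371) to 5.88 (5688090).

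The next comparison asked whether the probe sets of Ptprc changed by different amounts. limma's diffSplice F test, which tests whether the probe sets of a gene share 1 change, gave F = 8.38 for Ptprc (adjusted p = 2.37e-17). It treats the residuals of the 27 probe sets as independent, although all were read from the same 8 rats. Its p is therefore no measure of the spread between rats and can be too small. Of 5563 genes with at least 3 measured probe sets 26.6% passed that test. The SD of the changes over the 27 probe sets was 0.72. It was 0.37 at the median of 2286 genes with at least 10 measured probe sets, and 1.02 at the median of the 52 of them that rose by 2 or more, Ptprc among them. Of these 52 strongly rising genes 12 had a smaller SD than Ptprc.

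Each probe set was then set against the mean of the other 26 on the same array. Of the 27 Ptprc probe sets 5 differed between EAE and control in this relative value (18.5%, where 3.79% of all probe sets did): 1 above the rest of the gene (1.85% of all probe sets) and 4 below (1.94%). Among the 52 strongly rising genes the median share was 34.7%, and 11 had a lower share than Ptprc. EAE and control values of the relative measure did not overlap in 14 of the 27, where 12.7% of all probe sets had no overlap.

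Probe set 5688090 had the 1 call above the rest of the gene. It is among the 8 probe sets that counted as measured only with their EAE values, since 2 of its 4 controls reached the filter. Its relative value was -0.10, 0.50, 0.01 and 0.21 in EAE rats 217, 218, 219 and 241, against -1.95, -1.48, -1.06 and -2.32 in control rats 193, 194, 195 and 196. The difference was 1.86 ± 0.27 (SE, limma adjusted p = 0.00337), and without variance moderation the adjusted p was 0.0526. In controls the probe set read 3.78 ± 0.54 (SD, n = 4), under the background level of 5.21 that 95% of 2016 olfactory receptor probe sets stayed under there. Olfactory receptors have their main site in nasal epithelium and were taken as a gauge of background, so the rise of this probe set is measured against background.

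Probe set 6652371 rose less than the rest of the gene. Its relative value was -1.18, -1.85, -1.57 and -0.92 in EAE, against 0.07, 0.26, 0.08 and 0.39 in controls, a difference of -1.58 ± 0.22 (adjusted p = 0.00277). EAE 218 was the lowest array here, although it was the highest for most of the gene. This call held in all 18 alternatives tried, with adjusted p no higher than 0.036. The control mean of 5.61 ± 0.24 (SD, n = 4) was above background, while the EAE mean was 8.18 ± 0.27.

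The other 3 lower calls were smaller. Relative to the rest of the gene 5816230 differed by -1.08 ± 0.21 (adjusted p = 0.0169), 5880967 by -0.92 ± 0.20 (0.0318) and 6278837 by -0.70 ± 0.16 (0.0379), all in limma. In each of them all 4 EAE relative values lay below all 4 control values, and the control means of 6.53, 7.39 and 8.37 were well above background. Just outside the threshold was 5754417 with -0.75 ± 0.19 (adjusted p = 0.0506). Among the fits that left out 1 array, 5816230 kept its call only without control 193 or control 195, 5880967 only without EAE 218 or control 194, and 6278837 only without control 193. Without variance moderation 5816230 (adjusted p = 0.068) and 5880967 (0.0864) did not pass, and 6278837 did not pass after quantile normalization (0.058) or in diffSplice's test (0.0898). Without control 195 and EAE 218 together 5880967 (0.0521) and 6278837 (0.103) did not pass. The number of lower calls was 1 without EAE 217, EAE 219, EAE 241 or control 196, 2 without EAE 218, control 194 or control 195, and 4 without control 193. Without control 195 a second probe set, 6634075, passed above the rest of the gene (difference 1.35, adjusted p = 0.0087), against 0.94 ± 0.37 and adjusted p = 0.183 with all arrays. In diffSplice's own test per probe set 6 of 27 passed, 4 of them also among the 5, where 5.13% of all probe sets passed.

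**Figure D3:**
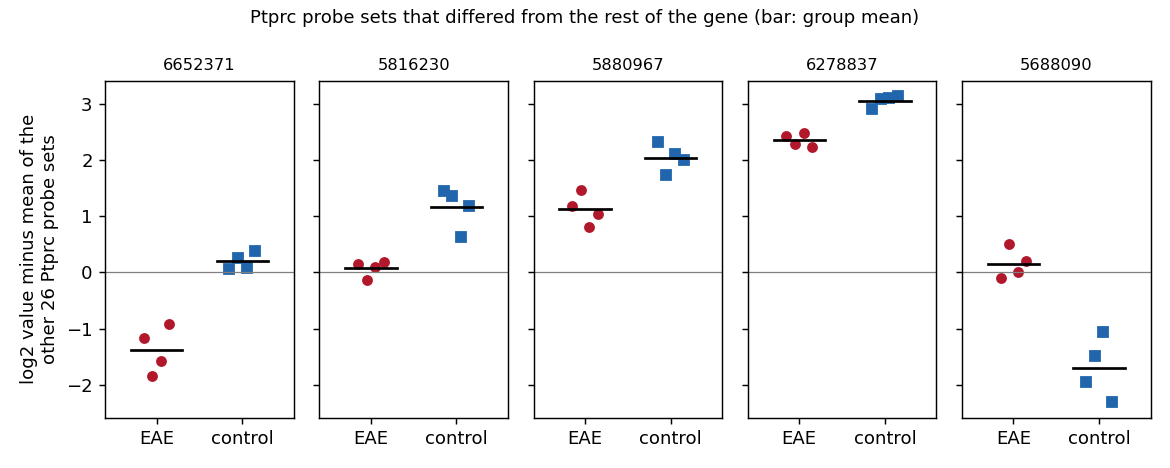
Log2 value of a probe set minus the mean of the other 26 Ptprc probe sets on the same array (vertical axis), for the 5 probe sets that passed, with 4 EAE rats (red circles, left) and 4 controls (blue squares, right) in each panel and bars at the group means. EAE lies below control in the first 4 panels and above it in 5688090, without overlap in any of the 5.

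The size of the change went with the control reading of a probe set. In 13 of the 27 the control mean was at or under the background of 5.21, and these rose by 3.51 to 5.88 (median 4.49). In the other 14, with control means from 5.23 to 8.37, changes ran from 2.57 to 4.72 (median 3.65). The 1 probe set above the rest of the gene was among the 13, and the 4 below were among the 14. Over the 27 probe sets Pearson's r between control mean and change was -0.55, a description only, since the control arrays enter both values. With the EAE mean r was 0.05, and between EAE and control means it was 0.80. The part of the control reading in the size of the changes was not tested.

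**Figure D4:**
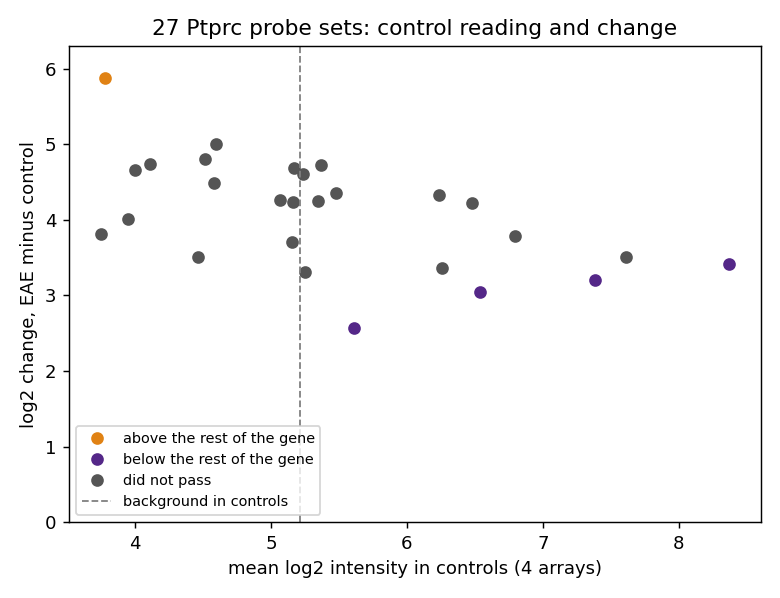
Mean log2 intensity in the 4 controls (horizontal axis) against the log2 change, EAE minus control (vertical axis), 1 point per Ptprc probe set, with the background of controls as a dashed line. The 4 probe sets below the rest of the gene (purple) have control means above that line, and the 1 above (orange) lies near the left end.

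Single arrays left a pattern across the probe sets. EAE 218 was the highest EAE array in 17 of the 27 and the lowest in 4, which were 5688710, 6023640, 6477915 and 6652371. Probe set 5688710 read 8.76, 7.98, 8.85 and 8.62 in EAE rats 217, 218, 219 and 241, against 5.67, 5.41, 4.33 and 5.58 in controls 193, 194, 195 and 196. EAE 218 and control 195 were each the lowest of their group there, and they were again in 6023640, with 8.14 and 3.66. The deviation of EAE 218 from its group mean and that of control 195 from its own had r = 0.65 over the 27 probe sets and 0.35 over all 62176 measured probe sets, as a description over probe sets that share these arrays. These arrays had the narrowest spread of log2 values in their groups (SD 2.17 and 2.11, against 2.18 to 2.26 on the other 6). Without both, Ptprc rose by 4.03 and all 27 probe sets rose, with 2 above and 2 below the rest of the gene.

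The change of Ptprc was set beside lists of cell type markers at the gene level. There 13.7% of 6961 genes rose, 17.4% fell and the median change was -0.11. Of 8 measured monocyte and macrophage markers 8 rose, by 2.19 to 5.50 (median 3.94). In controls 7 of the 8, all but Lyz2, had a mean at or under the single probe set background, so their rises are measured against background. They included Cybb, the catalytic subunit of the phagocyte oxidase (5.50 ± 0.15), the chemokine receptor Ccr2 (4.90 ± 0.26) and lysozyme Lyz2 (4.15 ± 0.19). Their mean per array was 8.34 to 8.84 in EAE, against 4.65 to 4.90 in controls. The 5 measured microglia markers rose by 1.12 to 2.49 (median 1.75), with all arrays less than any of the 27 Ptprc probe sets. The margin was small for Cx3cr1, against 2.57 in probe set 6652371. Without control 193 Cx3cr1 rose by 2.70, while 6652371 rose by at most 2.66 leaving out 1 array. Cx3cr1, the fractalkine receptor, rose by 2.49 ± 0.19, the phagocytic receptor Mertk by 1.78 ± 0.18 and Aif1, also called Iba1, by 1.75 ± 0.12. Mertk rose by 1.75 and Aif1 by 1.44 with no filter, while the rise of Cx3cr1 stayed the same. Cx3cr1 and P2ry12 rested on 2 measured probe sets each. P2ry13 rose least (1.12), and its control mean was at or under background. The mean of the 5 per array was 8.18 to 8.31 in EAE, against 6.41 to 6.85 in controls. Whether each list marks its cell type alone was not tested, so these lists cannot tell macrophages from microglia.

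Of 9 T cell markers 8 rose, with a median of 1.90 and with Cd4 (3.56 ± 0.15), Cd8a (2.29 ± 0.19) and Cd2 (2.03 ± 0.17) highest. Cd2 rose by 1.40 with no filter, while the rises of Cd4 and Cd8a stayed the same. The control means of all 9 were at or under background. Their mean per array was 5.88 to 6.07 in EAE, against 4.07 to 4.48 in controls. Of 7 NK cell markers 2 rose, Klrk1 (4.21 ± 0.16) and Gzmb (1.08 ± 0.23), and Prf1 passed with -0.57 ± 0.16 while at background in both groups. The control mean of Klrk1 was at or under background, so its rise is measured against background. Klrk1 rose by 3.67 with no filter. Gzmb changed by 0.15 (adjusted p = 0.545) under a stricter filter, at the 50th percentile, and Prf1 lost its call without EAE 217, EAE 218, EAE 219 or control 196 (adjusted p 0.0509 to 0.0657). Of 5 neutrophil markers 0 passed in limma and 1 had an unadjusted p under 0.05, with the largest differences in Il8rb (-0.50 ± 0.20, adjusted p = 0.0782) and S100a9 (0.34 ± 0.15, adjusted p = 0.119), both at background in both groups. Without control 193 Il8rb passed (-0.72, adjusted p = 0.00197), and without control 196 its difference was 0.0099. The filter, still at 4 arrays, was applied anew in such fits, so the probe sets behind a gene value could differ. S100a9 differed by 0.20 without control 193 and by 0.17 with no filter. The 1 measured B cell marker, Cd79b, rose by 0.36 ± 0.10 (adjusted p = 0.0258), with both group means at background. Its call was lost without EAE 218, EAE 241, control 193, control 194 or control 196 (adjusted p 0.0509 to 0.0764). The part of any of these cells in the rise of Ptprc was not tested.

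Markers of the cord's own cells were bright, with list means per array between 8.52 and 9.72. Of 7 neuronal markers 4 fell, of 8 oligodendrocyte markers 4 fell, and of 6 astrocyte markers 3 rose and 1 fell, by -1.18 to 1.15 over the 3 lists. Over all genes 13.7% rose and 17.4% fell.

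**Figure D5:**
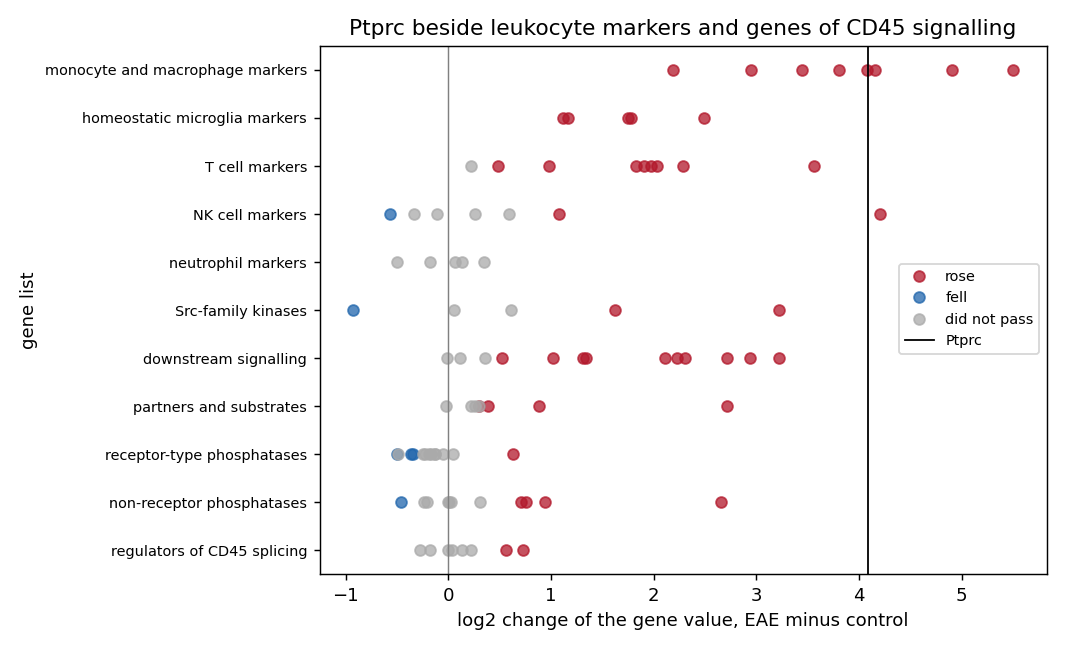
Log2 change of the gene value, EAE minus control (horizontal axis), for the measured genes of 11 lists, 1 point per gene, red where it rose, blue where it fell and grey where it did not pass. The black line marks Ptprc at 4.09, which lies between the lowest and highest monocyte and macrophage marker and beyond every gene of the phosphatase and kinase lists.

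The kinases that CD45 acts on changed unequally. Of 5 measured Src-family kinases 2 rose and 1 fell, where 13.7% of all genes rose and 17.4% fell. In controls 3 of the 5, Lyn, Fgr and Src, had a mean at or under background. The rises of Lyn and Fgr are thus measured against background. Lyn, the main Src-family kinase of B cells and myeloid cells, averaged 7.36 ± 0.05 in EAE and 4.14 ± 0.05 in controls (SD, n = 4 each), a rise of 3.22 ± 0.09 (adjusted p = 6.36e-09). Fgr, found mostly in myeloid cells, rose by 1.62 ± 0.15, and the widely expressed Yes1 fell by 0.93 on the log2 scale (SE 0.13, adjusted p = 0.000544). The rise of Fgr was 0.90 to 1.08 without any 1 EAE array, 0.86 without control 195 and EAE 218, and 2.505 with the filter at the 50th percentile. In these fits probe sets that counted as measured only with all 4 EAE arrays could drop out of the gene value. The rise of Fgr was 1.27 with no filter. The part of single rats and that of probe sets in the smaller rises was not tested. Fyn differed by 0.61 ± 0.24 (adjusted p = 0.0821) and Src by 0.05 ± 0.10. Lck and Csk, the kinase that adds the phosphate CD45 removes, were not analysed here.

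Of 8 measured partners and substrates 4 rose and 0 fell, also 4 and 0 at an unadjusted p under 0.05. Over all genes 13.7% rose and 17.4% fell. In controls 4 of the 8, Jak3 and Ptprcap among them, had a mean at or under background. Lgals3, a galectin that binds sugars of CD45, rose by 2.72 ± 0.23 and the Janus kinase Jak2 by 0.89 ± 0.10. The rise of Lgals3 was 1.88 with no filter, while that of Jak2 stayed at 0.89. Jak3 passed with 0.38 ± 0.12 (adjusted p = 0.0342) and lost its call without any 1 of the 4 EAE arrays or without control 196 (adjusted p 0.0626 to 0.237), with no filter (0.133) and with the median of probe sets as gene value (0.152). Ptprcap, the CD45-associated protein of lymphocytes, averaged 5.40 ± 0.17 in EAE and 5.10 ± 0.42 in controls over 3 probe sets, a difference of 0.30 ± 0.19 (adjusted p = 0.277). Its sign turned without EAE 241 (-0.36), with the filter at the 50th percentile (-0.13) and with the median of probe sets (-0.14). For Lgals3, Jak3 and Ptprcap too, the probe sets behind the gene value could differ between fits that left out arrays or changed the filter.

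Of 13 measured signalling proteins downstream of Src-family kinases 10 rose, with a median of 1.34, where 13.7% of all genes rose and 17.4% fell. In controls 7 of the 13, Btk among them, had a mean at or under background, so their changes are measured against background. Lcp2, the adaptor SLP-76, rose by 3.22 ± 0.13, Tyrobp, the adaptor DAP12 of myeloid and NK cell receptors, by 2.93 ± 0.16, and the kinase Btk of B and myeloid cells by 2.72 ± 0.10. Zap70, the kinase that T cells use in this step, differed by -0.01 ± 0.19, with both group means at background.

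Other tyrosine phosphatases changed unequally. Of 13 measured receptor-type relatives 1 rose and 3 fell, all by less than 1 on the log2 scale, and the median change was -0.19. Over all genes 13.7% rose and 17.4% fell, so these counts are near the background. Ptpro rose by 0.63 ± 0.10 (adjusted p = 0.000869), and Ptprr, found mainly in neurons, fell by 0.50 on the log2 scale (SE 0.10, adjusted p = 0.00466). The EAE mean of Ptprr was at or under background, so its fall is measured against background. Ptprh and Ptprd passed with -0.36 ± 0.12 (adjusted p = 0.0394) and -0.34 ± 0.10 (adjusted p = 0.0296). Ptprh, at background in both groups, lost its call without EAE 217, EAE 218, EAE 241, control 194, control 195 or control 196 (adjusted p 0.0625 to 0.104), and Ptprd without EAE 217, EAE 218, EAE 241, control 193 or control 196 (0.057 to 0.0817). Ptprd changed by -0.55 with the median of probe sets, and Ptprh by -0.64 (adjusted p = 0.103) with the filter at the 50th percentile. Of 11 non-receptor phosphatases 4 rose and 1 fell. Ptpn6, the blood cell phosphatase SHP-1, rose by 2.65 ± 0.11, Ptpn18 by 0.95 ± 0.13 and Ptpn2 by 0.76 ± 0.14. The control means of Ptpn6, Ptpn18 and Ptpro were at or under background, so their rises are measured against background. Ptpn5, a phosphatase of neurons, fell by 0.47 on the log2 scale (SE 0.11). The rise of Ptpn18 was 0.36 with no filter and 1.89 with the filter at the 50th percentile. With the median of probe sets as gene value Ptpn18 (adjusted p = 0.0934) and Ptpn5 (0.138) did not pass.

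Among 8 measured proteins known to act on the splicing of the variable CD45 exons 2 rose and 0 fell (2 higher and 1 lower at an unadjusted p under 0.05). With 13.7% of all genes rising and 17.4% falling, these counts are near the background too. Ptbp1 averaged 6.84 ± 0.10 in EAE and 6.12 ± 0.15 in controls, a rise of 0.72 ± 0.11 (adjusted p = 0.000869), and Cugbp2, now named Celf2, rose by 0.56 ± 0.12 (adjusted p = 0.00565). The median over the 8 was 0.08. Hnrnpl, which binds a silencer in these exons, differed by 0.22 ± 0.18 (adjusted p = 0.374). Whether these changes took place in cells with CD45 was not tested.

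The genes whose profile over the 8 arrays was most like that of Ptprc were Gda, Klrk1, Gbp2, Cxcl10 and Emr1. Likeness was the root mean square difference between profiles centred on their own means, over 5562 other genes with at least 3 measured probe sets, and it was 0.18, 0.18, 0.19, 0.19 and 0.21 for these 5. With groups this far apart the measure mainly picks genes with a rise near that of Ptprc. Their rises of 3.88 to 4.21 follow from that choice and are no sign of a shared pattern among rats. Gda, guanine deaminase, averaged 8.29 ± 0.17 in EAE and 4.40 ± 0.10 in controls. Emr1, the macrophage antigen F4/80 now named Adgre1, rose by 4.08 ± 0.12, against 4.09 ± 0.11 for Ptprc. Klrk1 is an activating receptor of NK and T cells, Gbp2 a guanylate-binding protein induced by interferon, and Cxcl10 a chemokine that attracts T cells.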

How the data were processed

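RNA from 8 spinal cords was read on exon arrays, 1 array per rat. The deposited values are log2 probe set intensities. The submitters' processing notes list Affymetrix Expression Console, RMA and Partek, with no version and no role for each. The sources used here do not give a genome build. Array-wide differences may have been removed before deposit, so changes are read relative to the rest of the array. Gene symbols came from the platform annotation (76186 probe sets with 1 symbol, 550 with several, 4203 with none), and older symbols of list genes were matched through a current rat gene table.

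Groups followed the sample titles. Probe sets (62176), gene values (means of measured probe sets) and relative values (56816 probe sets) were each fitted with limma 3.58.1 in R 4.3.3 (lmFit, eBayes), EAE minus control, 2-sided, with Benjamini-Hochberg adjustment over the whole table and a threshold of 0.05. Exon usage was tested with diffSplice. The precision is limited by the number of arrays, 4 per group. No litter or batch is given per rat. The gene, probe set, relative and exon usage fits were tested on simulated data. Residuals there were drawn independently for each probe set. Such data cannot show whether p-values are too small for probe sets of the same rats. Figures used matplotlib 3.10.9.

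Members and lists were chosen with earlier results of these data known. Named are the 3 largest and 3 smallest changes, the brightest and dimmest probe set, those that passed against the rest of the gene, up to 3 called genes per list and direction (2 largest where none passed, and neural lists by counts alone), and the 5 genes most alike; Ptprcap, Fyn, Src, Zap70, Hnrnpl and the probe sets 5688710, 6023640, 6477915 and 5754417 were added after their values were seen. Genes without a measured probe set were not analysed here.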

Additional observations from a re-analysis of the deposited data

Results flagged for a closer look

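In 5 of 56 groups of 4 arrays, taken over the gene value and the 27 probe sets, 1 array stood apart by Dixon's ratio of gap to range, above the 95% critical value. Chance flags about 1 in 20 such groups. Control 195 read 3.97 in probe set 5832541, against 4.67 to 4.74 in the other 3 controls (ratio 0.911). Control 193 read 4.74 in 5977098, against 5.36 to 5.45 (0.863). Control 196 read 5.997 in 6023832, against 5.25 to 5.34 (0.874), and 4.94 in 6603945, against 4.42 to 4.50 (0.854). EAE 218 read 8.91 in 6477915, against 9.42 to 9.52 in the other 3 EAE rats (0.842). In all 5 probe sets the EAE values stayed above the control values.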

How the results depend on the processing

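The rise of Ptprc kept its direction and its side of the threshold in all 17 alternatives, with 4.01 to 4.25 on the log2 scale (4.03 to 4.13 leaving out 1 array), and 27 probe sets rose in all 16 run for them. Exon usage passed in all 15 (adjusted p up to 1.41e-08, and 5.9e-20 to 7.68e-12 leaving out 1 array). These p-values share the limit of the F test, which treats probe sets of the same rats as independent. Counts against the rest of the gene moved: above it (1 as reported) they were 0 without variance moderation, 2 without control 195 and EAE 218, 2 with diffSplice's test, 5 with array quality weights and 1 to 2 leaving out 1 array. Below it (4 as reported) they were 2 without control 195 and EAE 218, 3 without variance moderation or after quantile normalization, 5 with the filter at the 50th percentile or the median of the other probe sets, 6 with array quality weights or a robust trended fit, and 1 to 4 leaving out 1 array. The cause was not tested. Over the lists 50 of 113 measured genes rose and 15 fell, with 45 to 51 and 11 to 21 in the alternatives. Over all genes 13.7% rose and 17.4% fell, and the lists hold many leukocyte markers by choice. Prf1 changed sign with no filter on dim probe sets (0.10, adjusted p = 0.584). Fits that left out arrays applied the filter anew, still at 4 arrays. A gene value could therefore rest on other probe sets there than in the main fit. The 13 probe sets at background in controls limit how well their rises are measured. No paired analysis was possible because rat numbers do not repeat across groups.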
